A study of Mus musculus with 57 samples.

Results

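The 9 genes described here mark tuft cells, the sparse chemosensory cells of the gut epithelium. They are Pou2f3 and Gfi1b (transcription factors), Gnat3, Trpm5, Rgs13 and Sucnr1 (signalling), Alox5 (lipid mediator synthesis), and Dclk1 and Avil (cytoskeleton). They were chosen by name, with earlier results of these data known. Each was read from its brightest probe set among those that carry 1 gene symbol. All 9 were found among the 22180 genes measured that way on 57 arrays, and no filter on dim signal was set. Alox5 had 2 such probe sets and the other members 1 each. Every level given below is a log2 intensity normalized by RMA, and every change is a difference of such levels. Levels of different genes are not compared, because each rests on its own probes.

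The arrays measured RNA from C57BL/6 mice, females per the treatment protocol, aged 18 to 24 weeks. Controls were littermates with the floxed insulin receptor gene (INSRfl/fl, written fl/fl below). Knockouts carried villin-CRE-INSR-/-, a Cre driven by the villin promoter, which acts in intestinal epithelium and leaves Insr in the other cells of the wall. Per the labels, AOM (azoxymethane, a colon carcinogen) was given at 7.4 mg/kg into the peritoneum and 3% DSS (dextran sulfate sodium, which injures the colon lining) for 7 days from week 2, with tissue taken at week 5. The labels also put that at 3 weeks after the end of DSS, which the weeks they name leave no room for, so the interval is uncertain. The 6 groups were untreated distal colon (10 fl/fl and 10 knockout), AOM+DSS distal colon (10 fl/fl and 10 knockout) and AOM+DSS tumors (8 fl/fl and 9 knockout). The titles call the samples biological replicates; whether any tumor shares its mouse with one of the colon samples is not given in the sources used here.

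Tuft cells sense luminal metabolites and microbes with the machinery of taste cells. A G protein alpha subunit, gustducin, passes the signal from receptors to a phospholipase and calcium stores, and the calcium opens the cation channel Trpm5. The cells then release Il25 and leukotrienes, which act on innate lymphoid cells, and Il13 from those cells raises tuft and goblet cell numbers. Pou2f3 is required for the lineage. Dclk1 labels colonic tuft cells in mice but is also made by enteric neurons and stromal cells, and Alox5 and Gfi1b are also made by blood cells. Other members, Rgs13 among them, may also be made outside tuft cells. Which cells made each member's RNA was not measured.

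The RefSeq promoter table for GRCm38.p6 held a start for 8 of the 9 members, Dclk1 with 2 starts. The 250 bases before each start were searched on both strands for the octamer ATGCAAAT, the motif that POU class 2 factors such as Pou2f3 bind. The octamer stood before Sucnr1 alone among the members, 48 bases before the start, and 1.6% of the 32851 promoters in the table hold it. The TCF/LEF core CTTTGA, a motif of Wnt signalling chosen after the members' values were seen, stood before Gnat3 and before the upstream start of Dclk1, and 13.8% of the promoters hold it. The search covered letters in this window only, and a match is no measure of binding. Below are the windows of Sucnr1 (chr3:60081619-60081868), Gnat3 (chr5:17962320-17962569), the signalling gene with the smallest p in tumors against untreated colon, and Dclk1 (chr3:55242114-55242363) and Avil (chr10:127000459-127000708), the members called in tumors against AOM+DSS colon. All lie on the plus strand, and capitals mark a motif match. The Avil window holds neither motif.
Sucnr1: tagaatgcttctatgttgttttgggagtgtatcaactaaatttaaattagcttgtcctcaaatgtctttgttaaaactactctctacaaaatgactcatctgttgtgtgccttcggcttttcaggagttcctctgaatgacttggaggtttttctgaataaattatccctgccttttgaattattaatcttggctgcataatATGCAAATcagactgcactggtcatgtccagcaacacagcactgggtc
Gnat3: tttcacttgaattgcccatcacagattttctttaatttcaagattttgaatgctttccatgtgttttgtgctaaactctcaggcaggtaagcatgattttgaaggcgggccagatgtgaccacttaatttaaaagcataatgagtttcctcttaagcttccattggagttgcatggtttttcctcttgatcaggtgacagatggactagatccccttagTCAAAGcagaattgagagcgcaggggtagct
Dclk1: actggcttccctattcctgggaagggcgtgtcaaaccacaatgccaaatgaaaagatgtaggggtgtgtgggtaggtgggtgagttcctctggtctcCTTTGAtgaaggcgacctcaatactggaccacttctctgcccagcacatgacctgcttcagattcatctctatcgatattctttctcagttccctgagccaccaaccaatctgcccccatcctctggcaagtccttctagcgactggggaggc
Avil: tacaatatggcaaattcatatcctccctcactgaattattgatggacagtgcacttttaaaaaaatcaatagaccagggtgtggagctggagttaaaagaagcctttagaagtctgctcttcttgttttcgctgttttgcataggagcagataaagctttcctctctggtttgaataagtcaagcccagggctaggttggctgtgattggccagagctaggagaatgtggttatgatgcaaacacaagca

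Insr itself was lower in knockout mice in all 3 tissues, by -0.94 ± 0.099 (log2 change ± SE) in untreated colon, -0.84 ± 0.099 in AOM+DSS colon and -0.65 ± 0.11 in tumors (limma, adjusted p = 6.71e-09, 2.32e-07 and 0.00234). The knockout and fl/fl ranges of Insr did not overlap in either colon condition. Among tumors they did: knockout tumor replicate 8 had 8.35, within the fl/fl tumor range, whose ends were 7.70 and 8.50. Array medians ran from 5.92 to 6.04. The mean of 10 pan-epithelial genes was 11.7 to 11.8 in every group. In bulk tissue, fewer cells of a type and less RNA per cell cannot be told apart.

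One array stood apart before any comparison. Untreated knockout replicate 2 had the highest value of all 10 arrays of its group for 6 of the 9 members, Pou2f3, Trpm5, Dclk1, Rgs13, Gnat3 and Avil. Rgs13 was 7.14 there against a mean of 5.22 ± 0.50 (SD) over the other 9 arrays, and Gnat3 was 7.43 against 5.53 ± 0.21. Pou2f3 was 5.84 against 4.68 ± 0.25, Trpm5 7.76 against 6.76 ± 0.15, Avil 7.35 against 6.30 ± 0.11, and Dclk1 8.55 against 7.62 ± 0.18. Alox5, Gfi1b and Sucnr1 lay within the range of the other arrays. Over all genes, 5083 of 22180 were highest in this array.

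The array was also high in other genes of the tuft lineage and of the secretory epithelium. Of 29 further tuft and tuft circuit genes, 17 exceeded the other 9 arrays, among them Sh2d7 (7.29 against 5.56) and Sh2d6 (7.10 against 5.71), adaptor genes of tuft cells, 1810046K07Rik (7.57 against 6.48), and Siglecf (6.63 against 5.80). Il4ra, a subunit of the Il4 and Il13 receptor, was 9.08 against 8.19. Il25 (6.14 against 5.90) and Il13 (6.05 against 5.97) lay within the others' range, and Il33 was lower, 6.32 against 7.60. Goblet genes exceeded the others in 5 of 6, enteroendocrine genes in 4 of 6 and enteric neuron genes in 4 of 6, against 0 of 9 squamous, 0 of 6 macrophage and 0 of 7 smooth muscle genes. Mast cell genes were highest there in 4 of 8 and erythroid genes in 2 of 3. The gene that stood out most of all, picked for its value here, was Retnlb, a goblet cell product, at 12.4 against 6.17 ± 1.39. Also picked for their values, Fabp2 (11.7 against 8.87) and Isx (9.77 against 5.99), which are made chiefly in the small intestine, and B3gnt6 (10.5 against 5.87) and Pnliprp2 (11.3 against 7.01) were high. The array carries the label distal colon like the others, and whether its tissue came from another stretch of gut was not tested. Because the array moves the untreated knockout means, member changes called against untreated knockouts are given with and without it.

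Among the transcription factors, Pou2f3 ran in untreated colon from 4.21 to 5.23 (median 4.61) in fl/fl mice and from 4.35 to 5.84 (median 4.67) in knockouts. After AOM+DSS it ran from 4.20 to 4.92 (median 4.38) in fl/fl mice and from 3.99 to 4.61 (median 4.37) in knockouts. In tumors it ran from 4.37 to 4.80 (median 4.67) and from 4.04 to 4.53 (median 4.34), respectively. All groups overlapped, and in knockouts the 10 AOM+DSS values lay below the median of untreated colon. The group means of Pou2f3 stayed under 5, a level at which signal is dim. Gfi1b, a repressor shared with platelet and red cell precursors, had group means between 6.49 and 6.66 and passed no test.

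Gnat3 encodes the alpha subunit of gustducin. In untreated colon it ran from 4.92 to 5.73 (median 5.42) in fl/fl mice and from 5.27 to 7.43 (median 5.58) in knockouts. After AOM+DSS it ran from 4.83 to 5.49 (median 5.05) and from 4.42 to 5.29 (median 5.04). In tumors it ran from 4.68 to 5.10 (median 4.89) and from 4.30 to 5.11 (median 4.80). From high to low the group means were in the order untreated, AOM+DSS, tumor in both genotypes. The step from untreated to AOM+DSS colon passed the test in knockouts only, and the step from AOM+DSS colon to tumor in neither genotype. In knockouts, 9 of 10 AOM+DSS arrays and 9 of 9 tumors lay below the lowest untreated array.

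Trpm5, the calcium-gated channel that depolarizes the cell, ran in untreated colon from 6.49 to 7.33 (median 6.73) in fl/fl mice and from 6.53 to 7.76 (median 6.81) in knockouts. After AOM+DSS it ran from 6.26 to 6.76 (median 6.52) and from 6.06 to 6.76 (median 6.45). In tumors it ran from 6.13 to 6.80 (median 6.51) and from 6.22 to 6.80 (median 6.33). AOM+DSS colon and tumors covered nearly the same range, and 8 of 10 knockout AOM+DSS arrays lay below all untreated knockout arrays.

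Rgs13, which speeds the switching-off of G protein alpha subunits, had an SD of 0.77 in untreated knockouts, the largest of any member in any group. In untreated colon it ran from 4.64 to 5.77 (median 5.12) in fl/fl mice and from 4.77 to 7.14 (median 5.08) in knockouts, with a second knockout array at 6.30. After AOM+DSS it ran from 4.55 to 5.59 (median 4.86) and from 4.18 to 5.27 (median 4.67). In tumors it ran from 4.32 to 5.09 (median 4.71) and from 4.03 to 4.65 (median 4.47). All 9 knockout tumors lay below the lowest untreated knockout array. Sucnr1, the succinate receptor, had group means between 3.98 and 4.16, in the dim range, with overlap between all groups.

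Alox5 makes the precursor of all leukotrienes. It ran from 6.30 to 6.61 in untreated fl/fl colon and from 6.28 to 6.83 in untreated knockouts, from 6.19 to 6.63 and from 6.08 to 6.68 after AOM+DSS, and from 6.29 to 6.83 and from 6.16 to 6.48 in tumors. The groups overlapped throughout.

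**Figure D1:**
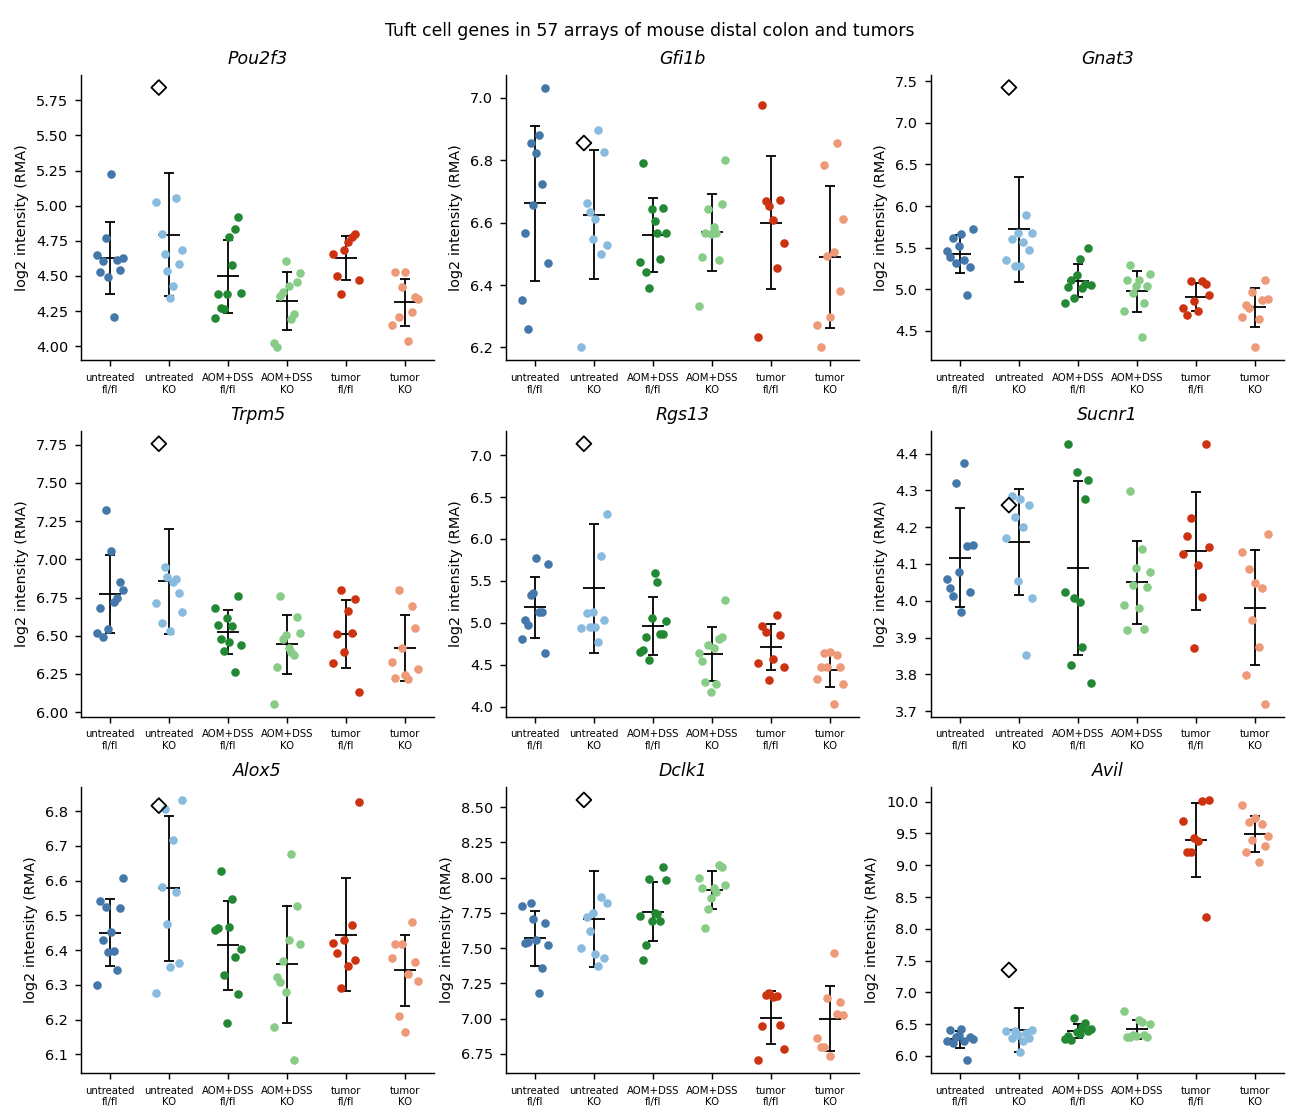
The log2 intensity (RMA, y axis) of each member on each array, by group (x axis): points are arrays, the horizontal bar and whiskers the group mean and SD (n = 10, 10, 10, 10, 8 and 9), and the open diamond untreated knockout replicate 2. Avil stands at 8.19 or above in every tumor and at 7.35 or below in every colon sample, Dclk1 is lower in tumors, and the diamond is the highest point of its group in 6 of the 9 panels.

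AOM+DSS colon was compared with untreated colon to ask how the members stood after carcinogen and injury. In knockouts, 5 of 9 members were lower and 0 higher, where 14.2% of all genes were lower and 16.0% higher (limma on 6 groups, adjusted p under 0.05 over 22180 genes). Gnat3 fell by 0.75 ± 0.14 on the log2 scale, to 0.60 of its untreated level (adjusted p = 3.93e-05), and was below the untreated median in 10 of 10 arrays. Rgs13 fell by 0.78 ± 0.18 (p = 6.53e-04), Pou2f3 by 0.48 ± 0.12 (p = 0.00112) and Trpm5 by 0.41 ± 0.10 (p = 0.00145). Alox5 fell by 0.22 ± 0.068 (p = 0.00973), a call lost at adjusted p = 0.0897 when its 2 probe sets were averaged. The other 4 members did not pass. Gnat3 and Rgs13 ended at group means of 4.97 and 4.63, under the level of 5 where signal is dim, so their folds can be understated. The median change over the 9 members was -0.22, against -0.04 over all genes.

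Without untreated knockout replicate 2 the same 5 members stayed lower, with smaller changes. Gnat3 then changed by -0.56 ± 0.099 (adjusted p = 1.07e-05), Rgs13 by -0.59 ± 0.15 (p = 0.00218), Pou2f3 by -0.36 ± 0.10 (p = 0.00428), Trpm5 by -0.31 ± 0.091 (p = 0.00586) and Alox5 by -0.19 ± 0.069 (p = 0.0272). Dclk1, at 0.20 ± 0.10 with all arrays (p = 0.117), rose by 0.30 ± 0.087 without that array (p = 0.00624), opposite in sign to those 5 genes.

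In fl/fl mice 0 of 9 members passed in either direction, where 12.2% of all genes were higher and 10.5% lower; 2 members, Trpm5 and Gnat3, had an unadjusted limma p under 0.05. Gnat3 changed by -0.32 ± 0.14 (adjusted p = 0.0976) and Trpm5 by -0.25 ± 0.10 (p = 0.0744), with 9 of 10 AOM+DSS arrays below the untreated median for each. Both passed when untreated knockout replicate 2 was left out, since the groups share 1 estimate of spread: the changes stayed as they were, with SE 0.096 and adjusted p = 0.0109 for Gnat3 and SE 0.089 and p = 0.0323 for Trpm5. Pou2f3 (-0.13 ± 0.12) and Rgs13 (-0.22 ± 0.18) did not. Rgs13 ended at a group mean of 4.96, under the level of 5 where signal is dim, so its change can be understated. The median over the 9 members was -0.10, against -0.04 over all genes.

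The falls in knockouts and the values in fl/fl mice were compared directly. The genotype difference in the AOM+DSS response was called for 0 of 9 members and for 0% of all genes (limma), with 3 members at an unadjusted p under 0.05. These were Rgs13 at -0.56 (95% CI -1.08 to -0.04), Gnat3 at -0.43 (-0.83 to -0.02) and Pou2f3 at -0.34 (-0.68 to -0.01), each with adjusted p = 0.804. Without replicate 2 the estimates were -0.37 ± 0.22, -0.24 ± 0.14 and -0.23 ± 0.14 (adjusted p = 0.852, 0.852 and 0.869). The data thus give no called difference between genotypes in this response, and intervals that reach from near 0 to changes as large as those within knockouts.

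Leukocyte and stromal genes changed beside these falls. Both genotypes had 6 of 6 neutrophil, 6 of 6 macrophage and 6 of 6 fibroblast genes higher after AOM+DSS, 3 of 5 B cell genes and 5 of 9 squamous epithelium genes higher, and 0 of 6 goblet and 0 of 6 enteroendocrine genes called. Mast cell genes, which bear on Alox5, were higher in 5 of 8 in fl/fl mice and 6 of 8 in knockouts. The mean of the B cell genes ran from 5.79 to 6.72 in untreated knockouts and from 7.26 to 7.77 after AOM+DSS, ranges that do not overlap. With that mean as a covariate Rgs13 changed by -0.96 ± 0.28 (adjusted p = 0.0482), Gnat3 by -0.59 ± 0.22 (p = 0.137), Trpm5 by -0.46 ± 0.16 (p = 0.115), Pou2f3 by -0.42 ± 0.18 (p = 0.22) and Alox5 by -0.17 ± 0.10 (p = 0.46), so Rgs13 alone still passed, with larger errors for all 5. As the covariate and the treatment do not overlap in knockouts, this fit cannot tell them apart. The mean of the colonocyte genes ran from 11.1 to 11.7 in untreated knockouts and from 10.5 to 11.3 after AOM+DSS. The part of these cells in the result was not tested.

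Other genes of the tuft program, listed with earlier results of these data known, changed in both directions. Of 29 measured, 8 were higher and 6 lower in knockouts after AOM+DSS, and 8 and 3 in fl/fl mice. In knockouts the lower genes included Sh2d7 (-0.59 ± 0.14, adjusted p = 5.06e-04), Sh2d6 (-0.51 ± 0.13), 1810046K07Rik (-0.50 ± 0.11) and the taste receptor Tas1r3 (-0.33 ± 0.074); Tas1r3 was also lower in fl/fl mice (-0.34 ± 0.074, p = 4.92e-04). The higher genes in both genotypes included Plcg2, Fyb, Plcb2, Alox5ap, Spib and Il4ra, which leukocytes also make. Alox5ap, the partner protein of Alox5, rose by 0.74 ± 0.14 in knockouts (p = 3.24e-05) while Alox5 fell. Il25 passed in none of the 6 comparisons between conditions.

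Tumors were compared with AOM+DSS colon of the same genotype. The members took 2 opposite courses and otherwise did not pass: Avil rose and Dclk1 fell in both genotypes, 1 of 9 members each way. The median change over members was 0.03 in fl/fl mice and -0.07 in knockouts, against 0.02 and 0.00 over all genes. Among all genes, 21.0% were higher and 20.2% lower in fl/fl mice and 21.5% and 21.4% in knockouts. Avil encodes advillin, an actin-bundling protein of the villin and gelsolin family found in the apical tuft of these cells and in sensory neurons.

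Avil ran in AOM+DSS colon from 6.24 to 6.60 (median 6.39) in fl/fl mice and from 6.29 to 6.71 (median 6.33) in knockouts. In untreated colon it ran from 5.94 to 6.42 and from 6.06 to 7.35, the latter being the array that stood apart. In tumors it ran from 8.19 to 10.03 (median 9.41) and from 9.05 to 9.95 (median 9.45). Every tumor lay above every colon sample. The share of all genes with such a separation was not counted, for Avil or for other members. With group means left in, the 8 genes likest to Avil, Mt3 first, each had r = 0.98 with it, so the pattern was not particular to Avil. The rise over AOM+DSS colon was 3.00 ± 0.14, an 8.0-fold higher intensity, in fl/fl mice (limma, adjusted p = 5.97e-26) and 3.07 ± 0.13, or 8.4-fold, in knockouts (p = 4.25e-27). Between genotypes, tumors differed by 0.10 ± 0.14 (95% CI -0.19 to 0.38).

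The genes on either side of Avil on chromosome 10, Atp23 and Tsfm, differed in tumors by 0.15 and 0.05 in fl/fl mice and by 0.01 and 0.14 in knockouts, and neither passed, where Avil rose by 3.00 and 3.07. Of its protein family, looked up after the values were seen, Vill rose by 1.12 ± 0.11 in fl/fl tumors and 0.99 ± 0.10 in knockout tumors over AOM+DSS colon. Scin fell by 2.01 ± 0.17 and 1.57 ± 0.16, Gsn by 1.03 ± 0.11 and 1.07 ± 0.11, Svil by 0.67 ± 0.085 and 0.71 ± 0.082, and Vil1 by 0.40 ± 0.069 and 0.43 ± 0.067. Flii (-0.14 ± 0.055 and -0.10 ± 0.053) and Capg (0.37 ± 0.10 and -0.02 ± 0.097) passed in fl/fl mice only by their own tests; the genotype difference was called for neither. The family therefore moved in both directions.

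The other members apart from Dclk1 did not pass beside it. Gnat3, Trpm5, Rgs13, Pou2f3, Alox5, Gfi1b and Sucnr1 changed between -0.25 and 0.13 in both genotypes, with adjusted p between 0.319 and 0.969. Of the 29 further genes, 3 were higher and 9 lower in fl/fl tumors, and 2 higher and 11 lower in knockout tumors. Sh2d6 rose by 0.36 ± 0.14 and 0.44 ± 0.13, but Sh2d7 did not pass (-0.30 ± 0.14 and -0.11 ± 0.14). Of 4 further genes of lipid mediator synthesis, 3 fell and Alox5ap did not pass (-0.09 ± 0.15 and -0.15 ± 0.14): the leukotriene C4 synthase Ltc4s fell by 0.53 ± 0.086 and 0.59 ± 0.084, the prostaglandin D synthase Hpgds by 0.69 ± 0.11 and 0.51 ± 0.10, and the phospholipase Pla2g4a by 0.41 ± 0.078 and 0.50 ± 0.075. Genes of other specialized epithelium were lower, with 6 of 6 enteroendocrine genes lower in both genotypes (median -2.16 in fl/fl mice) and colonocyte genes lower in 7 and 8 of 8.

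Dclk1, a microtubule-associated kinase, ran in AOM+DSS colon from 7.41 to 8.07 (median 7.73) in fl/fl mice and from 7.65 to 8.09 (median 7.93) in knockouts. In untreated colon it ran from 7.18 to 7.82 (median 7.55) and from 7.37 to 8.55 (median 7.67). In tumors it ran from 6.71 to 7.18 (median 7.05) and from 6.73 to 7.47 (median 7.03). Every tumor lay below every AOM+DSS colon sample of its genotype. Dclk1 fell by 0.75 ± 0.11 in fl/fl tumors (limma, adjusted p = 2.27e-08) and by 0.92 ± 0.10 in knockout tumors (p = 3.67e-11). Its relative Dclk3 fell by 0.26 ± 0.060 and 0.37 ± 0.058, while Dclk2 did not pass (0.12 ± 0.085 and -0.01 ± 0.082).

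Genes of the muscle layer and the enteric nervous system fell beside Dclk1. In tumors 7 of 7 smooth muscle genes and 5 of 6 enteric neuron genes were lower in both genotypes, with enteric glia genes lower in 2 and 3 of 3. The mean of the smooth muscle genes was 11.7 to 12.4 over AOM+DSS colon samples and 9.71 to 11.3 over tumors, with no overlap. With that mean as a covariate the fall of Dclk1 was no longer called: -0.35 ± 0.20 (adjusted p = 0.341) in fl/fl tumors and -0.53 ± 0.19 (p = 0.0646) in knockout tumors. That covariate does not overlap between tumors and colon, so the fit cannot tell them apart, and the errors grew; under it Avil was the single member still called in either genotype. The part of these tissues in the fall of Dclk1 was not tested.

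Within groups, Dclk1 varied with the enteric neuron, enteric glia and fibroblast genes. After each group's mean was subtracted, Dclk1 correlated over 57 arrays with the mean of the enteric neuron genes (r = 0.54, rho = 0.42, permutation p adjusted over 5 lists = 0.001 and 0.0064; r = 0.51 without the 2 arrays farthest out). With the enteric glia genes r was 0.35 and rho 0.40, and with the fibroblast genes 0.35 and 0.41 (adjusted permutation p = 0.0187 and 0.0064 for each). With the smooth muscle genes r was 0.31 and rho 0.25 (0.0187 and 0.0754, so rho did not pass). With the pan-epithelial genes r was -0.29 and rho -0.27 (0.0233 and 0.0646). Without the 2 arrays farthest out, r was 0.28 with the enteric glia genes and 0.30 with the fibroblast genes. It was then 0.28 with the smooth muscle genes and -0.21 with the pan-epithelial genes. The gene most like Dclk1 by this measure, looked up after the values were seen, was Cntn1, a neural adhesion protein (r = 0.72, and 0.68 without the array that stood apart). Dclk1 was also the 1 member that followed the array median (r = 0.53, rho = 0.51, permutation p adjusted over 9 members = 0.0009 and 0.00243), and the part of that in its result was not tested.

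**Figure D2:**
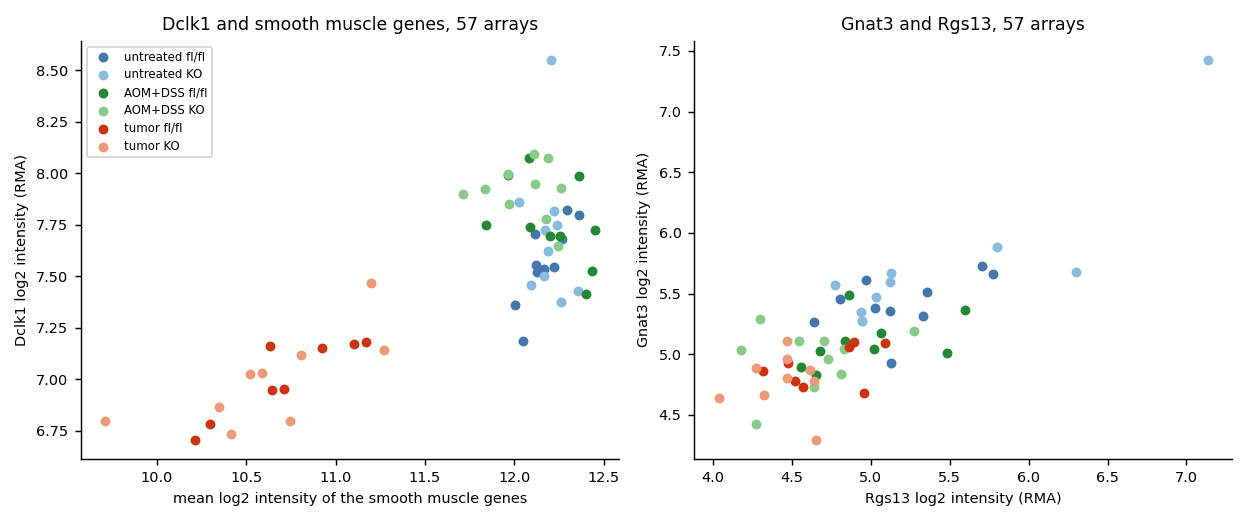
Left, Dclk1 (y axis) against the mean of 7 smooth muscle genes (x axis); right, Gnat3 against Rgs13; all axes are log2 intensities (RMA), and each point is 1 of 57 arrays coloured by group. Tumors sit apart at low Dclk1 and smooth muscle means of 9.71 to 11.3, and the single point at the upper right of the Gnat3 panel is untreated knockout replicate 2 (7.43 and 7.14).

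Set against untreated colon, tumors of both genotypes had Gnat3, Rgs13, Trpm5 and Dclk1 lower and Avil higher. In knockouts 7 of 9 members were lower and 1 higher, where 23.7% of all genes were lower and 23.6% higher; the median change was -0.44 over members and -0.04 over all genes. Rgs13 fell by 0.97 ± 0.19 (limma, adjusted p = 1.60e-05), Gnat3 by 0.94 ± 0.15 (p = 2.14e-07), Dclk1 by 0.71 ± 0.10 (p = 2.78e-08), Pou2f3 by 0.48 ± 0.12 (p = 5.83e-04) and Trpm5 by 0.44 ± 0.11 (p = 4.56e-04). Alox5 (-0.24 ± 0.070, p = 0.00353) and Sucnr1 (-0.18 ± 0.075, p = 0.0436) fell less, and Alox5 was not called with its probe sets averaged (p = 0.056). Without replicate 2, Rgs13 changed by -0.78 ± 0.16, Gnat3 by -0.75 ± 0.10, Dclk1 by -0.62 ± 0.089, Pou2f3 by -0.37 ± 0.10, Trpm5 by -0.34 ± 0.093 and Alox5 by -0.21 ± 0.070, all still called, Avil by 3.19 ± 0.12, and Sucnr1 no longer passed (p = 0.0704).

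In fl/fl mice 4 of 9 members were lower and 1 higher, where 22.5% of all genes were lower and 22.9% higher; the medians were -0.06 and -0.03. Dclk1 fell by 0.56 ± 0.11 (adjusted p = 8.57e-06) and Gnat3 by 0.52 ± 0.15 (p = 0.00371), each in 8 of 8 tumors below the untreated median. Rgs13 (-0.48 ± 0.20, p = 0.0417) and Trpm5 (-0.26 ± 0.11, p = 0.0456) passed narrowly and were lost under several other settings. Pou2f3 in fl/fl tumors stood at its untreated level, with a change of -0.0017 and a 95% CI from -0.25 to 0.25. Avil rose by 3.13 ± 0.14 in fl/fl mice and 3.08 ± 0.13 in knockouts. With the smooth muscle mean as a covariate, 1 member was called in fl/fl mice (Avil) and 2 in knockouts (Avil and Rgs13).

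**Figure D3:**
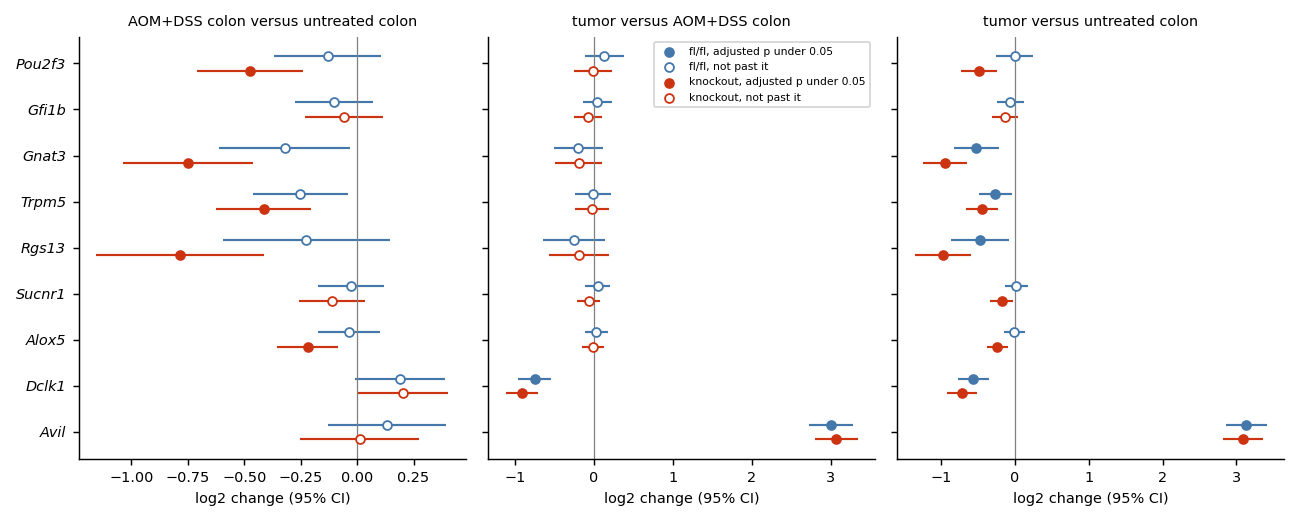
Log2 change of each member (x axis, point with its 95% confidence interval) in 3 comparisons, fl/fl in blue and knockout in red, with filled points for adjusted p under 0.05. Gnat3, Rgs13, Trpm5 and Pou2f3 lie left of 0 after AOM+DSS with filled points in knockouts, and in tumors Avil stands near 3 and Dclk1 below 0 in both genotypes.

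Loss of Insr was compared with its presence within each tissue. In untreated colon 0 of 9 members passed, against 0.00451% of all genes, which is Insr alone; 1 member, Gnat3, had an unadjusted limma p under 0.05 (0.30, 95% CI 0.01 to 0.59, adjusted p = 0.982). Without replicate 2 that difference was 0.11 ± 0.099. In AOM+DSS colon 0 of 9 passed at either level of p, against 0.541% of all genes. In tumors 0 of 9 passed, against 0.00902% of all genes; Pou2f3 alone had an unadjusted p under 0.05, at -0.31 (95% CI -0.57 to -0.06, adjusted p = 1), with 9 of 9 knockout tumors below the fl/fl tumor median. The intervals of Dclk1 (-0.23 to 0.21) and Trpm5 (-0.32 to 0.14) between tumors span 0.

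The 2 remaining tests of the genotype difference called 0 of 9 members and 0% of all genes each. For the tumor change over AOM+DSS colon, 0 members had an unadjusted limma p under 0.05. For the tumor change over untreated colon, 2 had: Pou2f3 at -0.48 (95% CI -0.83 to -0.13) and Alox5 at -0.23 (-0.43 to -0.03), both with adjusted p = 0.999. Without replicate 2 these were -0.37 ± 0.15 and -0.20 ± 0.10. The latter comparison shares its untreated samples with those above.

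How far the 9 genes moved together from sample to sample was measured after subtracting group means. Of 36 pairs, 5 passed by both r and rho (permutation p within groups, adjusted over the 36): Rgs13 with Gnat3 (r = 0.66, rho = 0.49), Pou2f3 with Gnat3 (0.62 and 0.45), Pou2f3 with Rgs13 (0.58 and 0.40), Trpm5 with Gfi1b (0.53 and 0.56) and Gfi1b with Sucnr1 (0.35 and 0.43). The adjusted permutation p values of these pairs ran from 0.00144 to 0.0328. Without the 2 arrays farthest out, their r was 0.46, 0.36, 0.32, 0.51 and 0.36. Without untreated knockout replicate 2, Trpm5 with Gfi1b was the 1 pair that passed by both (r = 0.52), Rgs13 with Gnat3 had r = 0.39 and rho = 0.41 (adjusted p = 0.0763 and 0.0374), and the median r over pairs went from 0.24 to 0.08. Alox5, Avil and Dclk1 were in none of the 5 pairs. Dclk1 with Sucnr1 was negative, with rho = -0.37 over all arrays (adjusted permutation p = 0.052). Without replicate 2 its rho was -0.40 (adjusted permutation p = 0.0413) and its r -0.38 (0.0783). Gfi1b with Sucnr1 also passed by rho alone there (rho = 0.42, adjusted permutation p = 0.0319). Mroh5, which is not in the tuft gene lists used here, was among the 8 genes likest to Trpm5 without replicate 2 (r = 0.67). With group means left in, it was also among the 8 likest to Gfi1b (r = 0.68). Pxt1, also outside those lists, was among the 8 likest to Trpm5 over all 57 arrays with group means subtracted (r = 0.73). With group means left in, Pxt1 was among the 8 likest to Gfi1b (r = 0.67). What Trpm5 and Gfi1b share was not tested.

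**Figure D4:**
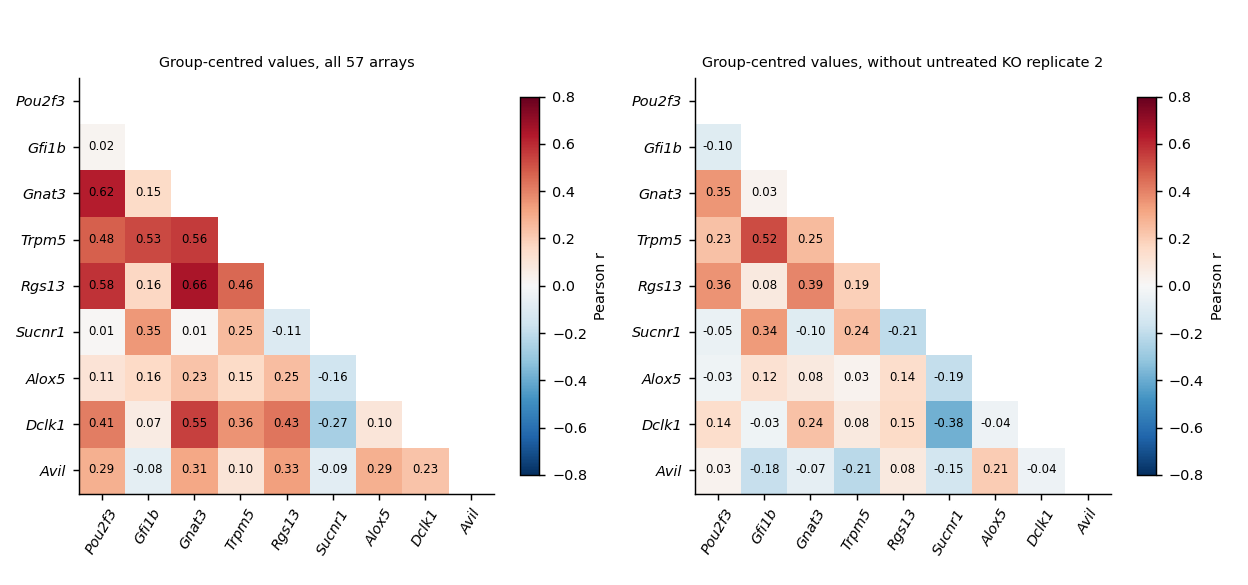
Pearson r between members over arrays, after subtraction of each group's mean, with all 57 arrays (left) and without untreated knockout replicate 2 (right); the colour scale runs from -0.8 to 0.8. Pairs among Pou2f3, Gnat3, Trpm5 and Rgs13, up to 0.66 on the left, are paler on the right, where Rgs13 with Gnat3 has 0.39.

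By the same measure the gene most like the mean of the 9 members, out of all non-members, was Sh2d7, with r = 0.85 over 57 arrays and 0.64 without replicate 2, in both cases first in rank. With group means left in, Sh2d7 also ranked first for Pou2f3 (r = 0.66) and Rgs13 (0.85) and second for Gnat3 (0.82) and Trpm5 (0.75). It was not among the 8 likest genes of Dclk1, Alox5, Gfi1b, Sucnr1 or Avil. Those were led by Cntn1 (0.90), Atp5d (0.59), Tas1r2 (0.75), Spata3 (0.58) and Mt3 (0.98), respectively. Grp, gastrin-releasing peptide, ranked first for Gnat3 (0.85). Sh2d7 itself had group means of 5.49 in untreated fl/fl and 5.73 in untreated knockout colon, 5.37 and 5.14 after AOM+DSS, and 5.08 and 5.03 in tumors. These correlations share arrays and the array that stood apart, and are given as a description. For Trpm5 alone, with group means subtracted, the likest genes were Rax, Pxt1 and Matk (r = 0.74, 0.73 and 0.71). A different 3 led without replicate 2 (Bpifb6, Grik4 and Cer1). For Avil, also with group means subtracted and looked up after the values were seen, Igsf11 led (r = 0.76, and 0.81 without replicate 2).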

How the data were processed

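The deposited values are log2 intensities, 1 per probe set and array, normalized by RMA per the submitters' processing notes; the labels' protocols give 250 ng of RNA amplified with a WT Plus kit. RMA shares information between arrays and compresses low signal, so changes of dim members such as Pou2f3 and Sucnr1 can be understated. The same limit holds for Gnat3 and Rgs13 in tumors and in knockout AOM+DSS colon, where their group means were under 5. It also holds for Rgs13 in fl/fl AOM+DSS colon (4.96). Every group mean of Pou2f3, Sucnr1, Gnat3 and Rgs13 lay below the lowest array median, 5.92. The highest of those means was 5.72, for Gnat3 in untreated knockouts. Scanner files were not used here, so probes below background could not be marked. Of 41345 probe sets, 23521 carried 1 symbol in the platform's table, 1814 carried several and 16010 were unnamed; the brightest probe set per gene gave 22180 genes. Groups were taken from sample titles. limma 3.58.1 in R 4.3.3 fitted 6 group means on all 57 arrays (51 residual degrees of freedom); p-values are two-sided and adjusted by Benjamini-Hochberg across the 22180 genes, with a threshold of 0.05. The fit was tested on simulated data. Correlations used 100000 permutations within groups. The number of arrays limits the precision. Alternatives were scaling, dim genes, probe set rule, variance model, array weights, replicate block, 4 list means as covariates, the groups in the fit and the array that stood apart. The members and gene lists were chosen with earlier results of these data known. Named genes are the 9 members, Insr, up to 6 genes per list with the smallest adjusted p, and the 8 genes likest to Trpm5 and to the members' mean; genes beyond these were chosen after values were seen. Samples were not treated as paired by replicate number. The correlation of same-numbered samples was over 0.1 in 1 to 5 of the 8 to 10 pairs of each comparison. Its mean ran from -0.0392 to 0.0959 by comparison, against -0.0121 to 0.0045 for samples of different number. Whether equal numbers share a batch or a mouse was not tested.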

Additional observations from a re-analysis of the deposited data

Results flagged for a closer look

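Each member's values in each of the 6 groups were searched for an array far from the rest of its group (a gap to the nearest array that is large against the whole range, by Dixon's 95% limit). In 54 such searches 8 values were flagged, and chance gives about 2.7 if the searches are independent. They are not independent, as the members share arrays. Untreated knockout replicate 2 gave 5 of the 8 flags, as the highest array: Pou2f3 at 5.84 (next array 5.06), Trpm5 at 7.76 (6.95), Dclk1 at 8.55 (7.86), Gnat3 at 7.43 (5.89) and Avil at 7.35 (6.41). The array's values in the lists of other cell types stand beside the results above. Alox5 was highest in fl/fl tumor replicate 8, at 6.83 against 6.47 for the next array. Avil was lowest in untreated fl/fl replicate 8, at 5.94 against 6.21, and in fl/fl tumor replicate 7, at 8.19 against 9.20, which is still above every colon sample.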

How the results depend on the processing

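No member's called change turned its sign under any setting tried; 1338 results kept their side of the threshold, 32 lost it and 10 gained it. The count of members called in AOM+DSS colon versus untreated colon of fl/fl mice, 0 in the fit reported, became 1 with every array shifted to 1 median, 1 with further quantile normalization, 2 with array weights, 2 without untreated knockout replicate 2 and 2 with only the groups compared (Trpm5, or Trpm5 and Gnat3, lower). In knockouts the count of 5 became 1 with the B cell mean as a covariate. In tumors versus untreated colon of fl/fl mice the count of 5 became 3 with the replicate block, 3 with the squamous mean, 3 with the B cell mean (Trpm5 and Rgs13 lost in each) and 1 with the smooth muscle mean; in knockouts the count of 8 became 2 with the smooth muscle mean. In tumors versus AOM+DSS colon the counts of 2 became 1 in each genotype with the smooth muscle mean. The pairs of members that passed by both r and rho went from 5 to 1 without untreated knockout replicate 2. By r alone the pairs went from 9 to 1, and by rho alone from 5 to 4. The cause of these changes was not tested. Whether replicate numbers pair the samples is not known, and the block moved no other count by over 1.5 times. Removing dim genes takes out Pou2f3 and Sucnr1, whose group means are under 5. Shifting arrays to 1 median or quantile normalization moved the median of all genes by less than 0.1.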
